A study of Danio rerio with 4 samples.

Results

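The synaptic vesicle and release genes were examined in RNA-seq libraries of whole zebrafish larvae, where 2 libraries of *grwd1* crispants were set against 2 wt libraries. The set held 57 gene symbols, chosen by name: the SNARE core with its partners, calcium sensors and complexins, vesicle membrane proteins, active zone and priming proteins, retrieval proteins, transmitter transporters and synthesizing enzymes, pan-neuronal and axon growth genes, and synaptic adhesion and scaffold genes. The choice was made with earlier results of these data known. A row of the deposited count table was a member when its gene symbol matched one of these names, ignoring case and with or without the letter a or b of a gene copy. All 57 symbols were found, in 73 of 32520 genes, and 71 of the 73 had enough reads to be tested. Many rows, such as those of *snap25* and *nsf*, matched only through dropping that letter. So did *sv2*, through *sv2a*, and *rims2*, through *rims2a*, although *sv2a* and *rims2a* had rows of their own. Because zebrafish carry copies of many genes, 35 of the 73 genes shared their symbol with another, and these are named with their Ensembl identifier.

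*grwd1* encodes a WD40-repeat protein of ribosome assembly, and the study asked how its loss changed the larval transcriptome in work on congenital diarrhea and enteropathy. The crispants were F0 mosaic larvae injected at the one-cell stage with Cas9 mRNA and 2 guide RNAs to *grwd1*, so a larva is a mix of edited and unedited cells. The wt larvae were raised in the same way, and the labels name no injection for them. Both groups were collected at 8 dpf as whole fish, with 15 larvae pooled for each group, and all F0 larvae kept for raising died. The 2 guide target sequences, shown because they define the crispant group, are written 5′ to 3′ with the 10 bases at the 3′ end, the side next to the PAM in a Cas9 target, in capitals.
gRNA1: gatacatgcgGTAAGCGGAG
gRNA2: actccaccgaCAGATCCCAT

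At a chemical synapse, transmitter is loaded into vesicles by proton-driven transporters, and vesicles dock at the active zone, where they are primed and held until calcium enters. Fusion is driven by the SNARE complex of a vesicle protein, synaptobrevin (VAMP), with the plasma membrane proteins syntaxin and SNAP-25. Synaptotagmins sense the calcium, complexins hold or promote the assembled SNAREs, and dynamin and endophilin take the membrane back up. Neurons use most of these genes wherever they lie, so in a whole larva their reads come from brain, spinal cord, retina and peripheral neurons together, and also from endocrine and sensory cells that use the same machinery.

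The libraries held 18510962 and 15916216 counts in crispants, against 16086482 and 18619802 counts in wt. *grwd1* (ENSDARG00000004806) had 6.40 and 6.34 CPM in crispants, against 24.98 and 24.1 CPM in wt, a fitted level of 26.0% of wt (95% interval 20.3 to 33.3%, edgeR adjusted p = 3.25e-14). Both crispant libraries were far below both wt libraries for the targeted gene. CPM is the read count of a gene relative to library size, with library sizes scaled by the trimmed mean of M values (TMM). Changes are log2 fold changes of crispants over wt with their standard error (SE), from edgeR's quasi-likelihood test, two-sided, with Benjamini-Hochberg adjustment over the 20479 genes tested and a threshold of 0.05. Over all genes, 1839 rose and 1524 fell in crispants, with a median change of 0.00 on the log2 scale. When library totals alone were used for scaling, 2355 rose and 1000 fell. The labels do not say whether replicate libraries were made from different pools of larvae. The p-values therefore rest on the differences between replicate libraries only, and those may be technical.

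Many transcripts of the synaptic machinery were lower in *grwd1* crispants, with a share of members that fell that ran from all 5 pan-neuronal genes to 2 of 9 transmitter loading genes. The medians of these 2 roles were -0.39 and -0.28 on the log2 scale. Some loading genes, such as *slc18a2*, had few reads, so these shares cannot be read as differences between roles. Of the 71 members tested, 39 fell, and the background share of genes that fell was 7.44%, also for the counts of each role below. Because the members were chosen with earlier results of these data known, this comparison is a description and not a test. By edgeR no member rose, at the adjusted threshold or at an unadjusted p of 0.05. The background share of genes that rose by edgeR at the adjusted threshold was 8.98%. No member rose by DESeq2 or limma-voom at an adjusted p of 0.05, where 1107 and 1827 of all genes rose. The median change of the members was -0.33 on the log2 scale, with quartiles of -0.42 and -0.25, and 64 of 71 lay below zero. Both crispant libraries were below both wt libraries for 54 members, against a background of 26.5%, and above both for 2 members, against a background of 28.1%. In a single gene such a gap is thus common and does not stand in for a passed test. Among genes with a mean of at least 10 CPM, 38 of 56 members fell, and the background share at this level was 12.8%. Summed over the 73 members, the level was 4912 and 4831 CPM in crispants, against 6124 and 6163 CPM in wt. As a share of all counts the members made up 0.510% and 0.489% in crispants, against 0.594% and 0.603% in wt. Because CPM is relative to library size, these values do not show a lower amount of these RNAs per larva. Fewer neurons and less of these RNAs per neuron cannot be told apart in whole larvae. Depending on which single library was left out, 27 to 37 members fell. Without crispant replicate 2, where the spread comes from the wt pair alone, a *bsn* copy passed as higher.

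**Figure D1:**
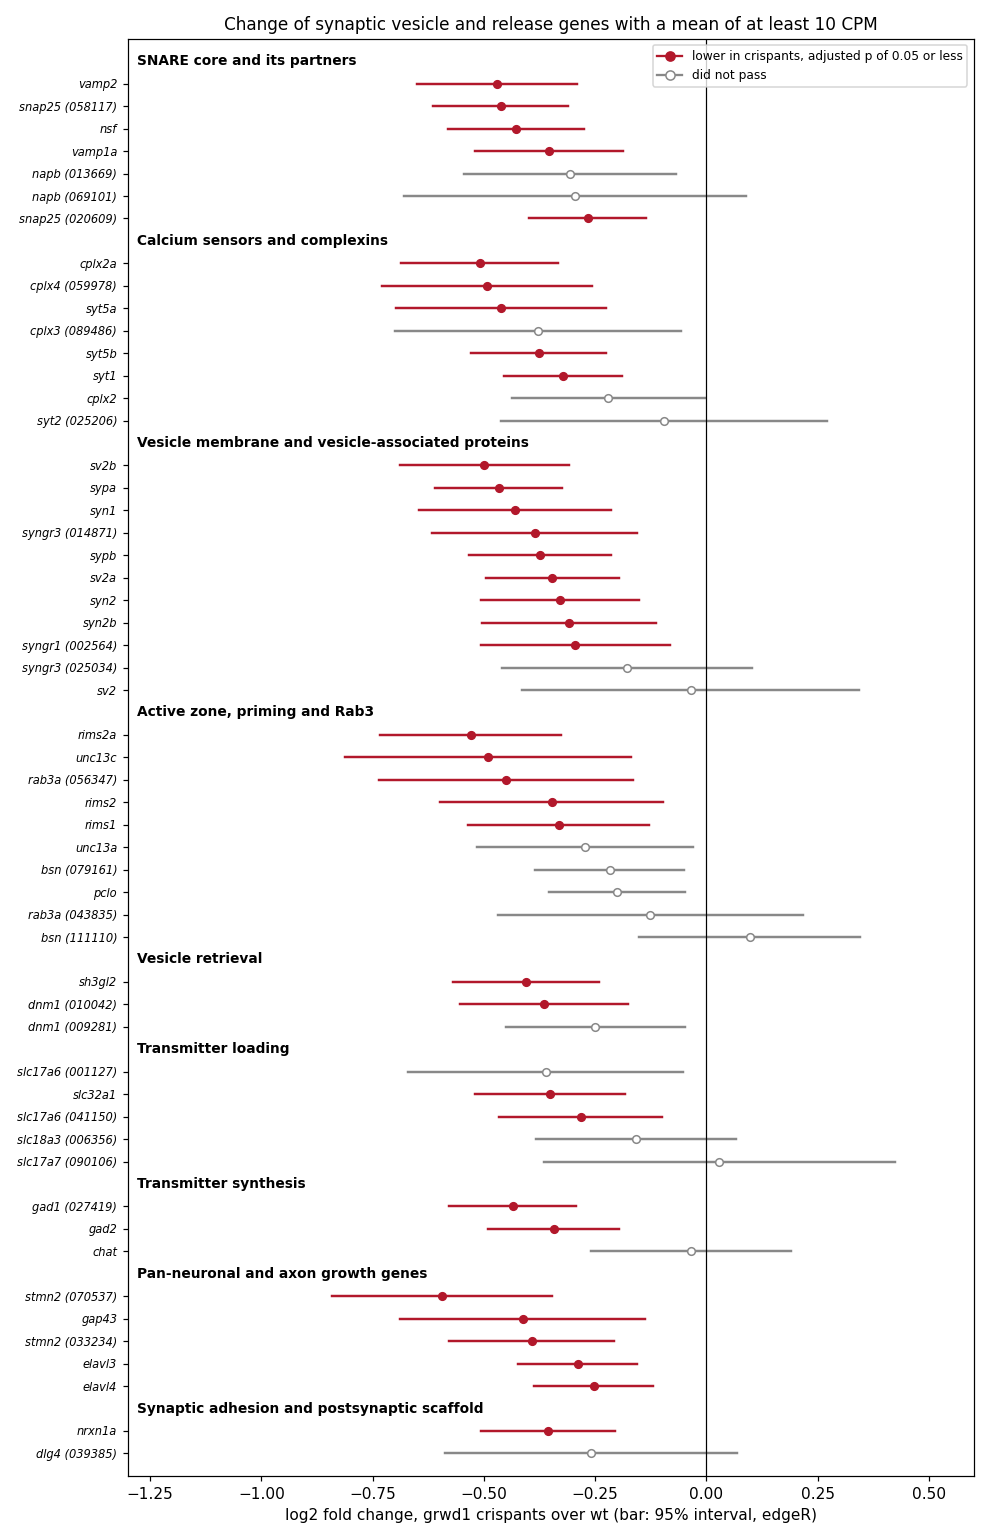
Log2 fold change of *grwd1* crispants over wt (horizontal axis, points) with its 95% interval (bars, edgeR) for 54 members with a mean of at least 10 CPM, grouped by role. Filled red points are the 36 that passed at an adjusted p of 0.05 and open grey points did not; the digits after a symbol are the last of its Ensembl identifier. All points lie left of zero except 1 *bsn* copy and 1 *slc17a7* copy, and no interval of a gene right of zero clears it.

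Of the SNARE core and its partners, 8 of 11 members fell, with a median of -0.35 on the log2 scale. SNAP-25 is a plasma membrane SNARE, and both copies fell. *snap25* (ENSDARG00000020609) had 388 and 381 CPM in crispants, against 456 and 469 CPM in wt, a log2 fold change of -0.27 (SE 0.07, edgeR adjusted p = 0.00184). *snap25* (ENSDARG00000058117) had 125 and 141 CPM in crispants, against 183 and 183 CPM in wt, a log2 fold change of -0.46 (SE 0.08, edgeR adjusted p = 2.29e-06). The crispant and wt libraries did not overlap for either copy, and the call of ENSDARG00000020609 held under 13 of 14 alternative settings. The synaptobrevins, the vesicle SNAREs, fell too. *vamp2* had 62.9 and 60.4 CPM in crispants, against 83.6 and 87.1 CPM in wt, a log2 fold change of -0.47 (SE 0.09, edgeR adjusted p = 4.77e-05). *vamp1a* had 85.0 and 83.3 CPM in crispants, against 103 and 112 CPM in wt, and its log2 fold change was -0.35 (SE 0.08, edgeR adjusted p = 0.00102). Its call held under 13 of 14 alternative settings. *vamp1b* had 7.75 and 5.41 CPM in crispants, against 11.5 and 11.3 CPM in wt, with a log2 fold change of -0.78 (SE 0.22, edgeR adjusted p = 0.00808). Of the members that fell, *vamp1b* had the largest fitted change but a wide interval (-1.23 to -0.34), and the test was no longer passed without crispant replicate 2.

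*nsf* encodes the ATPase that takes used SNARE complexes apart. It had 117 and 122 CPM in crispants, against 158 and 163 CPM in wt, a log2 fold change of -0.43 (SE 0.08, edgeR adjusted p = 1.36e-05). Its adaptor beta-SNAP is encoded by *napb*, and neither copy passed. *napb* (ENSDARG00000013669) had 33.0 and 29.6 CPM in crispants, against 35.2 and 42.2 CPM in wt, a log2 fold change of -0.31 (SE 0.12, edgeR adjusted p = 0.0671). *napb* (ENSDARG00000069101) had 10.8 and 10.1 CPM in crispants, against 13.2 and 12.4 CPM in wt, a log2 fold change of -0.29 (SE 0.19, edgeR adjusted p = 0.339). In both *napb* copies the crispant libraries were below the wt libraries, as they were in 26.5% of all genes tested. The only SNARE member with a positive change was the syntaxin gene *stx1a*, which was hardly detected. It had 32 and 16 reads in crispants, against 11 and 8 reads in wt, a log2 fold change of 1.23 (SE 0.67, edgeR adjusted p = 0.231). The 2 groups did not overlap in it, but the counts were small.

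Calcium sensors and complexins were divided between 5 members that fell and 7 tested members that did not pass, with a median of -0.35. Synaptotagmin 1 is the calcium sensor of fast release in mammals. *syt1* had 348 and 337 CPM in crispants, against 429 and 429 CPM in wt, a log2 fold change of -0.32 (SE 0.07, edgeR adjusted p = 0.000154). *syt5a* had 28.9 and 30.6 CPM in crispants, against 37.5 and 44.3 CPM in wt, and its log2 fold change was -0.46 (SE 0.12, edgeR adjusted p = 0.00285). *syt5b* had 138 and 162 CPM in crispants, against 189.7 and 199.8 CPM in wt, with a log2 fold change of -0.38 (SE 0.08, edgeR adjusted p = 0.000111). All 3 synaptotagmin genes had both crispant libraries below both wt libraries, and the call of *syt5a* held under 13 of 14 alternative settings. The *syt2* copies, paralogs of *syt1* that serve fast synapses of the hindbrain and spinal cord in mammals, did not pass. *syt2* (ENSDARG00000025206) had 17.0 and 10.6 CPM in crispants, against 14.8 and 14.8 CPM in wt, a log2 fold change of -0.10 with a 95% interval of -0.46 to 0.27. *syt2* (ENSDARG00000014169) had 8.38 and 4.78 CPM in crispants, against 6.85 and 5.93 CPM in wt, a log2 fold change of 0.05 with an interval of -0.47 to 0.58. In both *syt2* copies crispant replicate 1 was the highest and crispant replicate 2 the lowest of the 4 libraries. *syt1b* was close to the detection limit, with 15 and 18 reads in crispants, against 5 and 35 reads in wt, and its libraries overlapped.

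Complexins clamp and promote SNARE-driven fusion, and mammalian complexins 3 and 4 belong to ribbon synapses of the retina. *cplx2a* had 62.8 and 70.5 CPM in crispants, against 97.3 and 92.2 CPM in wt, a log2 fold change of -0.51 (SE 0.09, edgeR adjusted p = 7.69e-06). *cplx2* had 39.0 and 39.5 CPM in crispants, against 48.2 and 43.4 CPM in wt, with a log2 fold change of -0.22 (SE 0.11, edgeR adjusted p = 0.171). *cplx4* (ENSDARG00000059978) had 31.4 and 27.1 CPM in crispants, against 39.5 and 42.9 CPM in wt, a log2 fold change of -0.49 (SE 0.12, edgeR adjusted p = 0.00130). The groups were apart for these 3 genes, though *cplx2* did not pass. The *cplx3* genes did not pass. *cplx3* (ENSDARG00000089486) had 16.8 and 13.48 CPM in crispants, against 19.7 and 19.7 CPM in wt, a log2 fold change of -0.38 (SE 0.16, edgeR adjusted p = 0.101). *cplx3* (ENSDARG00000099196) had 27 and 17 reads in crispants, against 46 and 24 reads in wt, a log2 fold change of -0.77 (SE 0.54, edgeR adjusted p = 0.379). *cplx3* (ENSDARG00000062508) had 13 and 12 reads in crispants, against 0 and 14 reads in wt, a log2 fold change of 0.81 (SE 0.85, edgeR adjusted p = 0.592). The last 2 *cplx3* genes rest on few reads and their groups overlapped. A second *cplx4* gene (ENSDARG00000059486) had 0 reads in all 4 libraries and was not tested.

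Vesicle membrane and vesicle-associated proteins had 9 of 12 tested members lower and a median of -0.36. The synapsins tether vesicles to the cytoskeleton and to each other, and all 3 fell. *syn1* had 38.0 and 35.8 CPM in crispants, against 50.7 and 48.9 CPM in wt, a log2 fold change of -0.43 (SE 0.11, edgeR adjusted p = 0.00220). *syn2* had 67.6 and 67.1 CPM in crispants, against 87.3 and 81.9 CPM in wt, with a log2 fold change of -0.33 (SE 0.09, edgeR adjusted p = 0.00504). *syn2b* had 48.9 and 53.2 CPM in crispants, against 63.7 and 62.7 CPM in wt, and its log2 fold change was -0.31 (SE 0.10, edgeR adjusted p = 0.0194). No synapsin gene had overlapping groups. The call of *syn2* held under 13 of 14 alternatives, and that of *syn2b* was lost under 6 of 14. Synaptophysin is an abundant vesicle membrane protein that binds synaptobrevin. *sypa* had 178 and 175 CPM in crispants, against 248 and 240.0 CPM in wt, a log2 fold change of -0.47 (SE 0.07, edgeR adjusted p = 4.13e-07). *sypb* had 97.7 and 100.2 CPM in crispants, against 128 and 128 CPM in wt, with a log2 fold change of -0.37 (SE 0.08, edgeR adjusted p = 0.000267). *sypa* had the smallest adjusted p of the members. For both genes the 2 libraries of a group lay close together and the groups were well apart.

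SV2 proteins are transporter-like glycoproteins of the vesicle membrane. *sv2a* had 151 and 136 CPM in crispants, against 184 and 182 CPM in wt, a log2 fold change of -0.35 (SE 0.07, edgeR adjusted p = 0.000326). *sv2b* had 59.8 and 51.3 CPM in crispants, against 82.6 and 74.7 CPM in wt, and its log2 fold change was -0.50 (SE 0.10, edgeR adjusted p = 4.50e-05). *sv2c* had 5.62 and 3.91 CPM in crispants, against 8.77 and 6.09 CPM in wt, with a log2 fold change of -0.63 (SE 0.27, edgeR adjusted p = 0.109). The groups did not overlap in these 3 genes, but *sv2c* had few reads and did not pass. *sv2*, matched only by the dropped letter, had 11.7 and 11.99 CPM in crispants, against 12.5 and 11.7 CPM in wt, a log2 fold change of -0.04 with an interval of -0.41 to 0.34. Synaptogyrins are relatives of synaptophysin. *syngr1* (ENSDARG00000002564) had 42.1 and 38.1 CPM in crispants, against 48.8 and 49.8 CPM in wt, a log2 fold change of -0.29 (SE 0.11, edgeR adjusted p = 0.0459). *syngr3* (ENSDARG00000014871) had 36.9 and 31.6 CPM in crispants, against 40.4 and 49.2 CPM in wt, a log2 fold change of -0.39 (SE 0.12, edgeR adjusted p = 0.0122). *syngr3* (ENSDARG00000025034) had 19.7 and 24.4 CPM in crispants, against 25.3 and 24.4 CPM in wt, a log2 fold change of -0.18 (SE 0.14, edgeR adjusted p = 0.446). The crispant libraries were below the wt libraries in all 3 synaptogyrin genes, as in 26.5% of all genes tested. In ENSDARG00000025034, which did not pass, the margin was narrow. The call of *syngr1* was lost under 8 of 14 alternatives and that of ENSDARG00000014871 under 5. The other *syngr1* gene (ENSDARG00000103577) had 2 and 0 reads in crispants, against 0 and 2 reads in wt, and was not tested.

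**Figure D2:**
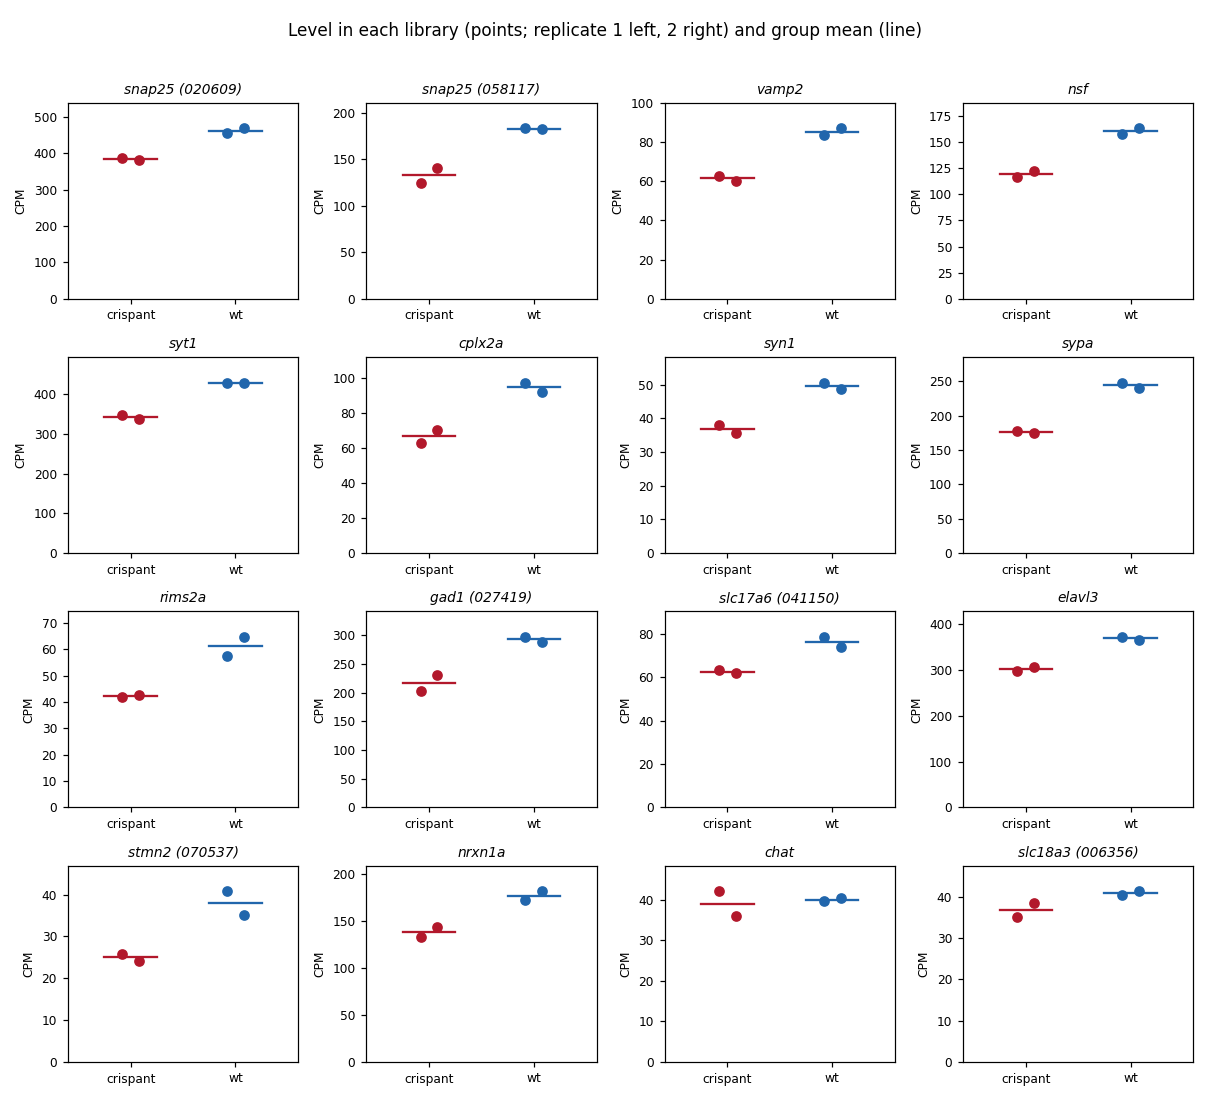
Level in CPM (vertical axes, from 0) of 16 members in each library, with *grwd1* crispants in red on the left and wt in blue on the right; points are single libraries and lines are group means. In 14 panels both crispant points lie below both wt points by a clear gap; in *chat* the groups overlap and in *slc18a3* they nearly touch.

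Of the active zone, priming and Rab3 genes, 5 of 10 were lower, with a median of -0.30. RIM proteins are scaffolds that link vesicles, calcium channels and Munc13. *rims1* had 52.2 and 44.5 CPM in crispants, against 57.7 and 64.2 CPM in wt, a log2 fold change of -0.33 (SE 0.10, edgeR adjusted p = 0.0146). *rims2a* had 42.0 and 42.6 CPM in crispants, against 57.4 and 64.7 CPM in wt, and its log2 fold change was -0.53 (SE 0.10, edgeR adjusted p = 5.32e-05). *rims2* had 26.3 and 25.9 CPM in crispants, against 35.7 and 30.8 CPM in wt, with a log2 fold change of -0.35 (SE 0.13, edgeR adjusted p = 0.0460). All 3 RIM genes had groups that did not overlap. *rims2a* fell under every alternative, whereas the call of *rims1* was lost under 5 of 14 and that of *rims2* under 9 of 14. Rab3a is the GTPase of synaptic vesicles that binds RIM. *rab3a* (ENSDARG00000056347) had 17.0 and 22.3 CPM in crispants, against 26.2 and 27.3 CPM in wt, a log2 fold change of -0.45 (SE 0.14, edgeR adjusted p = 0.0196). *rab3a* (ENSDARG00000043835) had 14.1 and 14.6 CPM in crispants, against 14.5 and 16.8 CPM in wt, a log2 fold change of -0.13 with an interval of -0.47 to 0.22. The *rab3a* copy that fell lost its call under 6 of 14 alternatives.

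Munc13 proteins prime docked vesicles by opening syntaxin, and bassoon and piccolo are very large scaffolds of the active zone. *unc13c* had 14.1 and 14.5 CPM in crispants, against 21.2 and 19.0 CPM in wt, a log2 fold change of -0.49 (SE 0.16, edgeR adjusted p = 0.0252), and its call was lost under 6 of 14 alternatives. *unc13a* had 40.4 and 28.0 CPM in crispants, against 40.8 and 42.1 CPM in wt, with a log2 fold change of -0.27 (SE 0.12, edgeR adjusted p = 0.121). Its crispant replicate 1 was at the wt level and its replicate 2 was well below. *pclo* had 196 and 159 CPM in crispants, against 199 and 209 CPM in wt, a log2 fold change of -0.20 (SE 0.08, edgeR adjusted p = 0.0614). *bsn* (ENSDARG00000079161) had 118 and 93.5 CPM in crispants, against 121 and 125 CPM in wt, a log2 fold change of -0.22 (SE 0.08, edgeR adjusted p = 0.0659). *bsn* (ENSDARG00000111110) had 62.5 and 35.5 CPM in crispants, against 46.9 and 45.2 CPM in wt, a log2 fold change of 0.10 (SE 0.12, edgeR adjusted p = 0.677). All these genes but *unc13c* had crispant replicate 1 close to or above wt and crispant replicate 2 below it.

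The values of these scaffold genes rested on which crispant library was used. With 1 crispant library left out, the spread came from the wt pair and the remaining crispant library was assumed to vary like it. Without crispant replicate 1, *unc13a* changed by -0.57 (edgeR adjusted p = 0.00170), *pclo* by -0.36 (0.000341), *bsn* ENSDARG00000079161 by -0.40 (0.000781) and *bsn* ENSDARG00000111110 by -0.38 (0.0455). Without crispant replicate 2, *unc13a* changed by -0.04 (edgeR adjusted p = 0.901), *pclo* by -0.07 (0.694), *bsn* ENSDARG00000079161 by -0.07 (0.718) and *bsn* ENSDARG00000111110 by 0.44 (0.00411). The direction of *bsn* ENSDARG00000111110 thus turned with the library left out. Replicate 1 over replicate 2 of the crispants was 0.82 on the log2 scale for *bsn* ENSDARG00000111110, 0.33 for *bsn* ENSDARG00000079161, 0.30 for *pclo*, 0.53 for *unc13a* and 0.81 and 0.68 for the *syt2* copies. It went the other way in *rab3a* ENSDARG00000056347 (-0.39), *slc17a6* ENSDARG00000001127 (-0.32) and *syngr3* ENSDARG00000025034 (-0.31). Of the members with at least 10 CPM, 6 were over 0.3 and 3 under -0.3 in crispants. Of all 10745 genes at that level, 770 were over 0.3 and 713 under -0.3 in crispants. Over the 56 members with at least 10 CPM, the median absolute difference between replicates was 0.11 in crispants and 0.07 in wt on the log2 scale, and over all genes at that level it was 0.12 in crispants and 0.11 in wt.

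**Figure D3:**
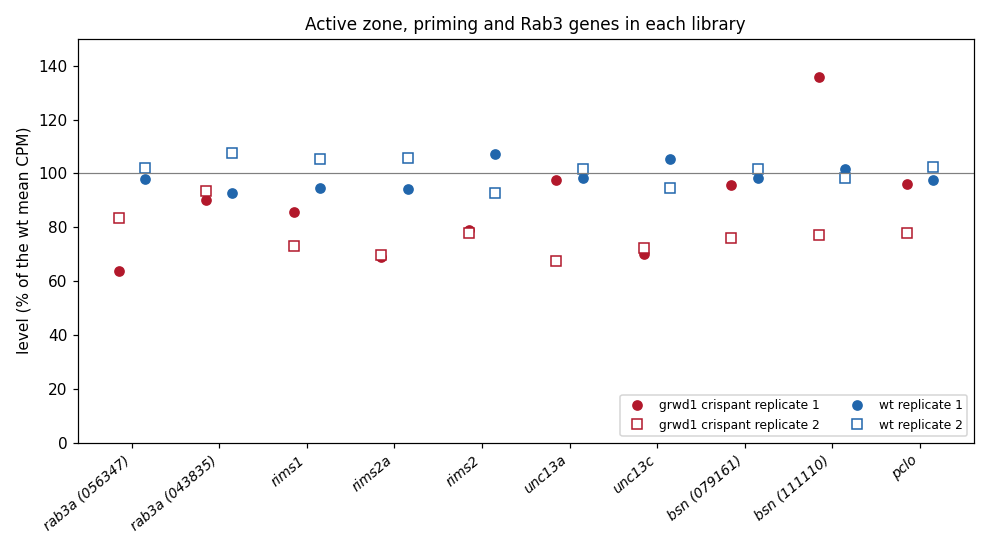
Level of the 10 active zone, priming and Rab3 genes in each library as a percentage of the wt mean CPM (vertical axis), with *grwd1* crispants in red left of wt in blue; filled circles are replicate 1 and open squares replicate 2. Crispant replicate 1 lies above replicate 2 for *unc13a*, *pclo* and both *bsn* copies, and for 1 *bsn* copy it is the highest of the 4 libraries.

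Vesicle retrieval genes were lower in 2 of 3 cases. Dynamin 1 pinches off the membrane taken up after release, and endophilin A1, encoded by *sh3gl2*, shapes its neck. *dnm1* (ENSDARG00000010042) had 66.5 and 55.6 CPM in crispants, against 83.3 and 74.3 CPM in wt, a log2 fold change of -0.37 (SE 0.09, edgeR adjusted p = 0.00322). *dnm1* (ENSDARG00000009281) had 48.7 and 47.9 CPM in crispants, against 61.0 and 54.0 CPM in wt, a log2 fold change of -0.25 (SE 0.10, edgeR adjusted p = 0.0811). *sh3gl2* had 88.0 and 93.4 CPM in crispants, against 114 and 126 CPM in wt, with a log2 fold change of -0.41 (SE 0.08, edgeR adjusted p = 0.000121). The groups were apart for all 3 genes, as in 26.5% of all genes tested, but *dnm1* ENSDARG00000009281 did not pass. *sh3gl2* fell under every alternative, and *dnm1* ENSDARG00000010042 under all but 2 of 14.

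Of the 4 member genes of GABA, the main inhibitory transmitter, 3 fell in crispants. *gad1* and *gad2* encode the enzymes that make GABA from glutamate, and *slc32a1* the transporter that loads GABA and glycine into vesicles. *gad1* (ENSDARG00000027419) had 203 and 229.9 CPM in crispants, against 297 and 289 CPM in wt, a log2 fold change of -0.44 (SE 0.07, edgeR adjusted p = 2.01e-06). *gad2* had 145 and 147 CPM in crispants, against 192 and 179 CPM in wt, with a log2 fold change of -0.34 (SE 0.07, edgeR adjusted p = 0.000320). *slc32a1* had 79.1 and 79.0 CPM in crispants, against 105 and 96.6 CPM in wt, and its log2 fold change was -0.35 (SE 0.08, edgeR adjusted p = 0.00137). None of the 3 had overlapping groups, and *slc32a1* lost its call without wt replicate 1. The second *gad1* copy (ENSDARG00000093411) was low and overlapped, with 4.79 and 3.79 CPM in crispants, against 6.66 and 3.95 CPM in wt and a log2 fold change of -0.29 (interval -0.91 to 0.32).

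The vesicular glutamate transporters, which mark excitatory neurons, were mixed, with 1 of 5 members lower, beside a background share of 7.44%. *slc17a6* (ENSDARG00000041150), encoding the transporter VGLUT2, had 63.3 and 61.8 CPM in crispants, against 78.6 and 73.8 CPM in wt, a log2 fold change of -0.28 (SE 0.09, edgeR adjusted p = 0.0227). *slc17a6* (ENSDARG00000001127) had 14.9 and 18.6 CPM in crispants, against 21.0 and 21.8 CPM in wt, a log2 fold change of -0.36 (SE 0.15, edgeR adjusted p = 0.105). Both *slc17a6* copies had crispant libraries below wt libraries, as in 26.5% of all genes tested. The second did not pass, and the first lost its call under 7 of 14 alternatives. *slc17a7* (ENSDARG00000090106) had 11.6 and 10.6 CPM in crispants, against 11.4 and 10.4 CPM in wt, a log2 fold change of 0.03 with an interval of -0.37 to 0.42. *slc17a7* (ENSDARG00000016480) had 9.83 and 7.58 CPM in crispants, against 10.8 and 11.3 CPM in wt, a log2 fold change of -0.34 with an interval of -0.76 to 0.08. *slc17a8*, the transporter VGLUT3 of hair cells in the ear and lateral line, had 3.90 and 3.73 CPM in crispants, against 3.33 and 3.68 CPM in wt, a log2 fold change of 0.12 with an interval of -0.57 to 0.81. The *slc17a7* and *slc17a8* values were low and their intervals wide.

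The acetylcholine genes did not pass. *chat* encodes the enzyme that makes acetylcholine, the transmitter of motor neurons, and *slc18a3* the transporter that loads it. *chat* had 42.1 and 36.0 CPM in crispants, against 39.7 and 40.5 CPM in wt, a log2 fold change of -0.04 with an interval of -0.26 to 0.19. *slc18a3* (ENSDARG00000006356) had 35.0 and 38.4 CPM in crispants, against 40.5 and 41.3 CPM in wt, a log2 fold change of -0.16 with an interval of -0.38 to 0.07. The *chat* libraries overlapped, and for *slc18a3* the crispant libraries were just below the wt libraries. The interval of *chat* lies above the median change of the members, -0.33, and that of *slc18a3* holds it. The other *slc18a3* copy (ENSDARG00000107527) had 10 and 16 reads in crispants, against 26 and 8 reads in wt. Of the monoamine members, *th*, the rate-limiting enzyme of dopamine and noradrenaline synthesis, had 4.37 and 5.78 CPM in crispants, against 5.32 and 3.02 CPM in wt, a log2 fold change of 0.29 with an interval of -0.34 to 0.92. *slc18a2*, the vesicular monoamine transporter, had 1.93 and 1.49 CPM in crispants, against 1.99 and 1.87 CPM in wt, with a log2 fold change of -0.17 and an interval of -1.16 to 0.83. Both monoamine genes overlapped between groups and had too few reads to show a change of the size seen in the GABA genes.

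The members were also summed by transmitter. The 4 GABA genes summed to 432 and 459 CPM in crispants, against 601 and 568 CPM in wt. The 4 *slc17a6* and *slc17a7* genes summed to 99.6 and 98.5 CPM in crispants, against 122 and 117 CPM in wt. The 3 acetylcholine genes summed to 77.6 and 75.4 CPM in crispants, against 81.8 and 82.2 CPM in wt. The crispant libraries were below the wt libraries in these 3 sums, with a small gap for acetylcholine. The 2 monoamine genes summed to 6.30 and 7.27 CPM in crispants, against 7.30 and 4.89 CPM in wt. The GABA sum over the acetylcholine sum was 5.57 and 6.09 in crispants, against 7.34 and 6.91 in wt, and the groups did not overlap. An exact two-sided permutation test gave p = 0.333, the smallest that 2 against 2 libraries allow (0.466 after adjustment over 7 ratios, all chosen after the values were seen). With this number of libraries the test could not pass at 0.05, so it says nothing for or against a difference between the transmitters.

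**Figure D4:**
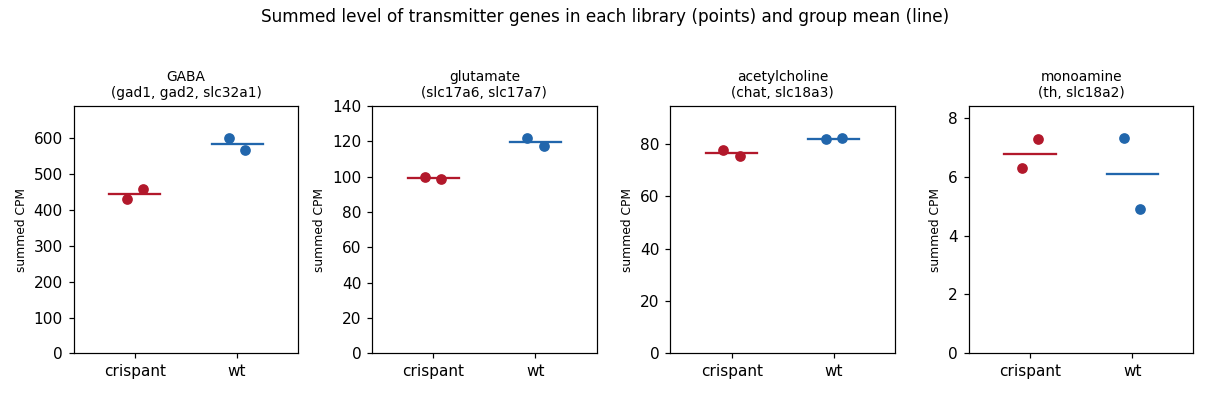
Summed CPM (vertical axes, from 0) of the member genes for GABA, glutamate, acetylcholine and monoamines in each library, with *grwd1* crispants in red on the left and wt in blue on the right; points are libraries and lines are group means. The GABA sums of 432 and 459 CPM in crispants lie well under the 601 and 568 CPM in wt, and the acetylcholine sums lie close together.

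All 5 pan-neuronal and axon growth genes fell, with a median of -0.39. *elavl3* and *elavl4* encode RNA-binding Hu proteins that mark neurons. *elavl3* had 298 and 305 CPM in crispants, against 371 and 366 CPM in wt, a log2 fold change of -0.29 (SE 0.07, edgeR adjusted p = 0.000874). *elavl4* had 312 and 313 CPM in crispants, against 366 and 379 CPM in wt, with a log2 fold change of -0.25 (SE 0.07, edgeR adjusted p = 0.00406). Neither gene overlapped between groups, and *elavl4* lost its call without wt replicate 2. Stathmin 2 regulates microtubules in axons, and GAP-43 is a growth cone protein. *stmn2* (ENSDARG00000033234) had 58.3 and 56.2 CPM in crispants, against 74.9 and 75.5 CPM in wt, a log2 fold change of -0.39 (SE 0.09, edgeR adjusted p = 0.00112). *stmn2* (ENSDARG00000070537) had 25.9 and 24.2 CPM in crispants, against 40.8 and 35.1 CPM in wt, a log2 fold change of -0.59 (SE 0.12, edgeR adjusted p = 0.000187). *gap43* had 19.3 and 22.7 CPM in crispants, against 25.7 and 29.9 CPM in wt, and its log2 fold change was -0.41 (SE 0.14, edgeR adjusted p = 0.0283). The crispant libraries were below the wt libraries for all 3 genes, and the call of *gap43* was lost under 5 of 14 alternatives.

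Of the synaptic adhesion and scaffold genes, 1 of 4 fell, beside a background share of 7.44%. Neurexin 1 is a presynaptic adhesion protein, neuroligin 1 its postsynaptic partner, and *dlg4* encodes the postsynaptic scaffold PSD-95. *nrxn1a* had 132 and 144 CPM in crispants, against 172 and 181 CPM in wt, a log2 fold change of -0.36 (SE 0.08, edgeR adjusted p = 0.000253). *nlgn1* had 7.08 and 5.59 CPM in crispants, against 6.40 and 8.95 CPM in wt, with a log2 fold change of -0.28 and an interval of -0.78 to 0.22. The groups were apart for *nrxn1a* and overlapped for *nlgn1*. *dlg4* (ENSDARG00000039385) had 14.4 and 15.7 CPM in crispants, against 19.3 and 16.7 CPM in wt, a log2 fold change of -0.26 with an interval of -0.59 to 0.07. *dlg4* (ENSDARG00000041926) had 7.65 and 5.90 CPM in crispants, against 8.20 and 8.67 CPM in wt, a log2 fold change of -0.31 with an interval of -0.79 to 0.16. Both *dlg4* copies had crispant libraries below wt libraries without passing, a gap found in 26.5% of all genes tested.

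Of the 39 members that fell, 21 did so under all 14 alternative settings. Among these were 1 of the *snap25* copies (ENSDARG00000058117), *vamp2*, *nsf*, *syt1*, *syt5b*, *cplx2a*, *cplx4*, *syn1*, *sypa*, *sypb*, *sv2a*, *sv2b*, *rims2a*, *sh3gl2*, *gad1* ENSDARG00000027419, *gad2*, *elavl3*, both *stmn2* copies and *nrxn1a*.

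A list of other copies and other release genes outside the members had 99 tested genes, of which 23 fell, against a background of 7.44%, and 5 rose, against a background of 8.98%. The median was -0.17. *sncb*, encoding beta-synuclein, a presynaptic protein, had 112 and 114 CPM in crispants, against 179 and 176 CPM in wt, a log2 fold change of -0.65 (SE 0.08, edgeR adjusted p = 2.31e-10). The synaptotagmin gene *syt11* (ENSDARG00000057913) had 159 and 163 CPM in crispants, against 216 and 206 CPM in wt, a log2 fold change of -0.39 (SE 0.07, edgeR adjusted p = 2.42e-05). The other *syt11* copy (ENSDARG00000056105) changed by -0.24 (SE 0.14, edgeR adjusted p = 0.245) and did not pass. All 3 of these genes had crispant libraries below wt libraries. Of those that rose, *dnm2a*, encoding the dynamin of most cell types, had 29.8 and 25.9 CPM in crispants, against 16.7 and 16.5 CPM in wt, a log2 fold change of 0.75 (SE 0.14, edgeR adjusted p = 4.76e-05). *nsfb*, the other copy of the SNARE ATPase gene, had 26.4 and 20.3 CPM in crispants, against 16.5 and 16.1 CPM in wt, with a log2 fold change of 0.52 (SE 0.15, edgeR adjusted p = 0.0103). The groups were apart in both genes. The copies of *stxbp5*, encoding the syntaxin-binding protein tomosyn, moved in opposite directions. *stxbp5* (ENSDARG00000029234) had 19.8 and 16.9 CPM in crispants, against 11.3 and 13.7 CPM in wt, and its log2 fold change was 0.55 (SE 0.17, edgeR adjusted p = 0.0177). *stxbp5* (ENSDARG00000002656) had 45.5 and 36.5 CPM in crispants, against 55.4 and 49.0 CPM in wt, with a log2 fold change of -0.34 (SE 0.11, edgeR adjusted p = 0.0191). Neither *stxbp5* copy overlapped between groups.

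Among 30 tested genes of transmitter synthesis, loading and reuptake outside the members, 4 fell and 4 rose, with a median of -0.05. The background shares were 7.44% lower and 8.98% higher. *slc6a11*, a GABA transporter of the plasma membrane, had 51.9 and 42.4 CPM in crispants, against 63.4 and 60.5 CPM in wt, a log2 fold change of -0.39 (SE 0.10, edgeR adjusted p = 0.00344). Those that rose included the glutaminase genes *gls2* ENSDARG00000069095, with 36.3 and 29.0 CPM in crispants, against 23.9 and 20.7 CPM in wt and a log2 fold change of 0.55 (SE 0.13, edgeR adjusted p = 0.00134), and *gls* ENSDARG00000040705, with 41.1 and 47.8 CPM in crispants, against 34.4 and 33.0 CPM in wt and a log2 fold change of 0.40 (SE 0.11, edgeR adjusted p = 0.00813). *gch1*, which makes the cofactor of tyrosine hydroxylase, changed by 0.61 (SE 0.20, edgeR adjusted p = 0.0236). The other copies, *gls2* ENSDARG00000002917 and *gls* ENSDARG00000062812, did not pass (log2 fold changes -0.07 and -0.11). Glutaminases also work outside neurons.

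Other neuronal genes fell more than they rose, with 29 of 68 tested genes lower, the other 39 not passing, and a median of -0.29. The background shares of all genes were 7.44% lower and 8.98% higher. *tuba1c*, a tubulin gene, had 135 and 147 CPM in crispants, against 214 and 189 CPM in wt, a log2 fold change of -0.51 (SE 0.08, edgeR adjusted p = 1.99e-07). *gng3*, a G protein subunit of neurons, had 65.4 and 65.7 CPM in crispants, against 91.9 and 101 CPM in wt, with a log2 fold change of -0.56 (SE 0.09, edgeR adjusted p = 9.57e-07). *stmn1* (ENSDARG00000033655) had 401 and 405 CPM in crispants, against 526 and 535 CPM in wt, and its log2 fold change was -0.40 (SE 0.07, edgeR adjusted p = 2.35e-06). The groups were apart in these 3 genes, and the other *stmn1* copy (ENSDARG00000004169) had a log2 fold change of 0.66 (SE 0.25, edgeR adjusted p = 0.0624). The members' summed CPM over that of this list was 1.37 and 1.36 in crispants, against 1.36 and 1.38 in wt, so the groups overlapped (exact permutation p = 0.667, 0.667 after adjustment over the 7 ratios). Over these 3 lists together, 56 of 197 tested genes fell, 9 rose, and the median was -0.22, beside the same background shares.

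The summed markers of photoreceptors, of other retinal neurons, and of glia and myelin were lower in crispants, as the members were. The sums of neural progenitor, islet and pituitary, and enteroendocrine markers were lower too. In those lists, in that order, 13 of 23, 7 of 16 and 5 of 14 tested genes lay above zero. The sums of hair cell markers and of enteric and autonomic neuron markers overlapped between groups. The part of any cell type in the members' change was not tested. Of the photoreceptor markers, 28 of 51 tested genes fell, against a background of 7.44%, and the other 23 did not pass. The median was -0.49. Their sum was 2475 and 2644 CPM in crispants, against 3802 and 3650 CPM in wt, and no photoreceptor marker was at 0 in all libraries. The rhodopsin gene *rho* (ENSDARG00000002193) had 356 and 398 CPM in crispants, against 679 and 577 CPM in wt, a log2 fold change of -0.74 (SE 0.07, edgeR adjusted p = 9.60e-14). The 3 other genes of that symbol had few reads and did not pass. The cone genes *pde6ha* and *opn1lw2* changed by -0.81 (SE 0.09, edgeR adjusted p = 9.53e-12) and -0.88 (SE 0.10, edgeR adjusted p = 1.91e-11). Their other copies did not pass. *pde6h* changed by -0.40 (edgeR adjusted p = 0.0549). *opn1lw1* went the other way on few reads, with 24 and 24 in crispants, against 8 and 10 in wt. Its log2 fold change was 1.35 (SE 0.68, edgeR adjusted p = 0.179). Of 23 tested markers of other retinal neurons, 6 fell, against a background of 7.44%, and 17 did not pass. The list summed to 615 and 630 CPM in crispants, against 765 and 789 CPM in wt. *pou4f2*, a transcription factor of retinal ganglion cells, had 28.7 and 28.3 CPM in crispants, against 53.8 and 53.2 CPM in wt, a log2 fold change of -0.91 (SE 0.11, edgeR adjusted p = 9.98e-10). The ganglion cell marker *rbpms2* passed in both copies, ENSDARG00000079578 with a change of -0.52 (SE 0.11, edgeR adjusted p = 0.000150) and ENSDARG00000045930 with -0.35, and *ctbp2a*, of the gene family that makes the ribbon protein RIBEYE, changed by -0.35 (SE 0.09, edgeR adjusted p = 0.00164). The members' sum over the photoreceptor sum was 1.98 and 1.83 in crispants, against 1.61 and 1.69 in wt. These ratios did not overlap between groups (exact permutation p = 0.333, the smallest possible, 0.466 after adjustment).

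Glia and myelin markers fell in 11 of 24 cases, against a background of 7.44%, and the other 13 did not pass. The median was -0.24, and the sum was 2606 and 2696 CPM in crispants, against 3290 and 3221 CPM in wt. Of the glutamine synthetase genes of glia, *glul* (ENSDARG00000099776) had 496 and 512 CPM in crispants, against 712 and 713 CPM in wt, a log2 fold change of -0.50 (SE 0.06, edgeR adjusted p = 4.18e-09), and *glul* (ENSDARG00000100003) changed by -0.22 (SE 0.07, edgeR adjusted p = 0.0115). The myelin genes *mpz* and *plp1b* changed by -0.84 (SE 0.11, edgeR adjusted p = 1.72e-08) and -0.85 (SE 0.12, edgeR adjusted p = 3.48e-08). The glial gene *gfap* did not pass. It had 222 and 222 CPM in crispants, against 204 and 209 CPM in wt, a log2 fold change of 0.11 (SE 0.07, edgeR adjusted p = 0.350). Of the 24 markers, 4 lay above zero and 20 below. Much of the glial sum came from the *glul* genes and *slc1a2* (ENSDARG00000102453). Their means were 504, 398 and 543 CPM in crispants, against 713, 465 and 649 CPM in wt. The members' sum over the glial sum was 1.88 and 1.79 in crispants, against 1.86 and 1.91 in wt, with overlapping groups (exact permutation p = 0.667, 0.667 after adjustment). Of 23 neural progenitor markers, 2 rose and 3 fell, with a median of 0.04 and a sum of 978 and 990 CPM in crispants, against 1081 and 1041 CPM in wt. The background shares were 8.98% for genes that rose and 7.44% for genes that fell. The intermediate filament gene *nes* had 27.4 and 22.1 CPM in crispants, against 15.0 and 15.1 CPM in wt, a log2 fold change of 0.72 (SE 0.15, edgeR adjusted p = 0.000268). The Notch ligand gene *dlb* changed by 0.75 (SE 0.21, edgeR adjusted p = 0.00784). The proneural genes *neurod1* and *neurod4* changed by -0.55 (SE 0.09, edgeR adjusted p = 1.39e-06) and -0.41 (SE 0.12, edgeR adjusted p = 0.0149), and the Notch ligand gene *dld* by -0.22 (SE 0.07, edgeR adjusted p = 0.0135).

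The remaining cell types that share the release machinery gave smaller counts, to be read beside background shares of 8.98% higher and 7.44% lower. In the pancreatic islet and pituitary list, 3 of 16 tested genes fell, the prohormone processing and granule genes *cpe*, *pcsk2* and *chgb* (log2 fold changes -0.33, -0.50 and -0.34), and 1 rose, *pomc*, which had 13 and 13 reads in crispants, against 0 and 1 reads in wt. The islet and pituitary sum was 803 and 812 CPM in crispants, against 927 and 955 CPM in wt, and 3 markers of this list were at 0 in all libraries, as none was in the other cell type lists. In this sum *cpe* and *scg2b* had means of 249 and 216 CPM in crispants, against 313 and 244 CPM in wt. The hormone genes *ins*, *gh1*, *sst1.2*, *gcg* and *gcga* had few reads and did not pass. Their crispant libraries were above the wt libraries (log2 fold changes 0.57, 1.07, 0.91, 0.59 and 0.75), as in 28.1% of all genes tested. The hormone gene *tshb*, also with few reads, overlapped between groups (log2 fold change 0.13). Of the 16 tested genes, 7 lay above zero and 9 below. Of 14 tested enteroendocrine markers, *penk* and *pax6* ENSDARG00000103379 fell (log2 fold changes -0.65 and -0.28), the other *pax6* copy (ENSDARG00000045936, -0.20) did not pass, and *gip*, with 57 and 25 reads in crispants, against 6 and 16 reads in wt, rose. The other copy of *penk*, *penka*, changed by 0.29 without passing, and its groups overlapped. The enteroendocrine sum was 132 and 147 CPM in crispants, against 166 and 156 CPM in wt, with groups that did not overlap. Much of this sum came from the *pax6* copies, with means of 53.1 and 24.8 CPM in crispants, against 64.7 and 28.4 CPM in wt. Of the 14 tested markers, 5 lay above zero and 9 below, so the sum does not show a fall of these markers as a group. Among 12 enteric and autonomic neuron markers none passed by edgeR, DESeq2 or limma-voom, and 1 was higher at an unadjusted p of 0.05, with a sum of 117 and 121 CPM in crispants, against 134 and 113 CPM in wt. Of 19 hair cell markers, *myo6* ENSDARG00000044016 rose (log2 fold change 0.44) and *tmie* and *otof* ENSDARG00000030832 fell (log2 fold changes -0.999 and -0.36), with a sum of 239 and 227 CPM in crispants, against 231 and 224 CPM in wt. The other copies, *myo6* ENSDARG00000042141 and *otof* ENSDARG00000020581, did not pass (log2 fold changes 0.16 and 0.01). The enteric neuron and hair cell sums overlapped between groups.

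Skeletal muscle markers moved the other way, with 9 of 23 higher, against a background of 8.98%, and 14 not passing. The median was 0.15. Their sum was 100074 and 103423 CPM in crispants, against 94612 and 94331 CPM in wt, or 10.4% and 10.5% of all counts in crispants, against 9.18% and 9.23% in wt. *acta1* (ENSDARG00000055618) had 134 and 135 CPM in crispants, against 81.4 and 79.9 CPM in wt, a log2 fold change of 0.74 (SE 0.08, edgeR adjusted p = 2.54e-11). The other *acta1* copy (ENSDARG00000036371) changed by 0.32 (SE 0.08, edgeR adjusted p = 0.00341), and both actin copies passed. Of the genes for the calcium release channel of muscle, *ryr1* (ENSDARG00000011422) changed by 0.55 (SE 0.10, edgeR adjusted p = 1.03e-05), whereas *ryr1* (ENSDARG00000023797) had 269 and 224 CPM in crispants, against 242 and 247 CPM in wt, a log2 fold change of 0.01 (SE 0.07, edgeR adjusted p = 0.959). *myhz1.2*, a fast myosin heavy chain gene, changed by 0.31 (SE 0.06, edgeR adjusted p = 2.99e-05). The members' sum over the muscle sum was 0.0491 and 0.0467 in crispants, against 0.0647 and 0.0653 in wt (exact permutation p = 0.333, the smallest possible, 0.466 after adjustment).

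**Figure D5:**
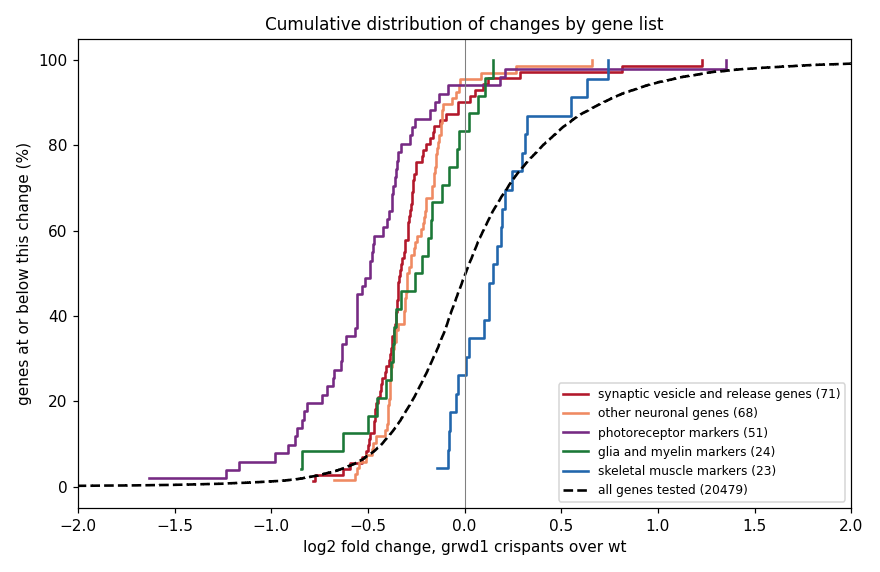
Cumulative share of genes (vertical axis, percent) at or below a given log2 fold change of *grwd1* crispants over wt (horizontal axis) for the members, other neuronal genes, markers of 3 cell types and all genes tested, with the number of genes in brackets. The members, with a median of -0.33, lie left of all genes and close to the other neuronal genes (-0.29), photoreceptor markers lie further left (-0.49) and muscle markers to the right (0.15).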

How the data were processed

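RNA was sequenced from whole 8 dpf larvae, 2 *grwd1* crispant and 2 wt libraries, made with a stranded total RNA kit. The labels call the libraries both polyA-enriched and rRNA-depleted, and which was done is not settled. Per the submitters' processing notes, reads were handled with FastQC, Trimmomatic 0.39, HISAT2 and featureCounts on GRCz11, and the authors deposited raw read counts per Ensembl gene. Not given in the sources used here were the strand setting, the treatment of multimapping reads and the annotation release, so values of near-identical gene copies, which can share reads, are uncertain.

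Of 32667 rows, 147 exact repeats were dropped, leaving 32520 genes, and the name table gave a symbol for 89.8% of them. Genes were filtered with filterByExpr and tested with edgeR 4.0.16 in R 4.3.3 (TMM, quasi-likelihood, genotype as the single term). The fit was also run on simulated counts whose changed genes moved by more than the members' median. Its power at that median was not examined. Alternatives were DESeq2 1.42.0, limma-voom (limma 3.58.1), an adjusted p of 0.01, other scalings and filters, kept repeats, a replicate block and leaving out each library. TMM factors without the 50 most abundant genes were added after seeing the data.

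The members and lists were chosen with earlier results of these data known. The lists were the member roles, other copies and other release genes, transmitter genes outside the members, other neuronal genes, and markers of photoreceptors, other retinal neurons, glia and myelin, neural progenitors, pancreatic islet and pituitary, enteroendocrine cells, enteric and autonomic neurons, hair cells and skeletal muscle. A few genes are not reported here by name, though counts and sums include them. Library values were given for members that passed, their copies, the 5 with the highest mean CPM and the 5 in each direction with the lowest p among the rest, and lists were illustrated by the 3 genes in each direction with the smallest p among those that passed. Other copies of these genes were added, as were the glial genes *gfap* and *slc1a2* and some islet, pituitary and enteroendocrine genes that did not pass. Intervals cover the spread between these libraries only. Levels were not compared between genes, because no transcript lengths were used.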

Additional observations from a re-analysis of the deposited data

How the results depend on the processing

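The members' direction held under all 14 alternatives run: 37 to 40 of 71 members fell with limma-voom, RLE factors, no filter, kept repeats, TMM without the 50 most abundant genes or the replicate block, 39 of 67 fell with at least 10 counts in every library, and 29 fell with DESeq2, with library totals alone or at an adjusted p of 0.01. Their median was -0.26 on the log2 scale with library totals alone. Leaving out 1 library, which leaves 1 group with a single library assumed to vary like the other group, the number lower ranged over 27 to 37, the number higher over 0 to 1, and the median over -0.36 to -0.31. *bsn* ENSDARG00000111110 reversed to -0.38 without crispant replicate 1 and rose by 0.44 without crispant replicate 2; the cause was not tested. For the other release, transmitter and neuronal genes, 9 rose in the reported fit, 2 with DESeq2, 3 at an adjusted p of 0.01 and 16 with library totals alone, where their median was -0.14. Leaving out 1 library, 5 to 7 of them rose and 36 to 54 fell. Over all genes, 1839 rose and 1524 fell in the reported fit, 1107 and 1017 with DESeq2, 1193 and 938 at an adjusted p of 0.01, 2355 and 1000 with library totals alone, and 1266 to 1375 and 935 to 1327 without 1 library. The median of all genes reached 0.08 with library totals alone. Same-numbered libraries of the groups did not deviate together over all genes tested (correlation -0.01). That value cannot show whether they shared a batch that moved only part of the genes. With the replicate block 37 members fell. Depth limits the members with few reads, such as *syt1b*, *th* and *slc18a2*, whose intervals include the members' median change.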
